A study of Mus musculus with 4 samples.

Results

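Coat proteins bend a membrane into a vesicle and choose what the vesicle carries. Clathrin, a lattice of heavy and light chains, is tied to the membrane by adaptors: the AP complexes, each built of a pair of large subunits with a medium (mu) and a small (sigma) subunit, and the single-chain GGA proteins. AP-1 and the GGAs work between the trans-Golgi network and endosomes, AP-2 at the plasma membrane in endocytosis, and AP-3 on the route from endosomes to lysosomes, while AP-4 and AP-5 act without clathrin. COPI is a separate coat that returns proteins and lipids from the Golgi to the endoplasmic reticulum. Nearly all cells use these coats, so the comparison asked which of their mRNAs were recovered with the RNA-binding protein CUGBP1 in myoblasts.

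The genes were chosen by symbol: every AP subunit, the 3 GGAs, the 3 clathrin chains and the COPI subunits, in probe sets annotated to exactly 1 gene. The rule found 46 probe sets of 43 genes, out of 21044 probe sets of 19452 genes. They comprised 8 probe sets of AP-1, 5 of AP-2, 10 of AP-3, 4 each of AP-4 and AP-5, 3 of GGAs, 3 of clathrin and 9 of COPI. The gamma subunit of COPI once named *Copg* was measured under its later symbol *Copg1*. Vesicle-mediated transport was a theme the study itself drew from these samples, so the counts that follow are not independent evidence of a direction.

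RNA was immunoprecipitated from cytoplasmic lysate of proliferating C2C12 cells, a mouse myoblast line, held under 70% confluency so that they did not differentiate. All samples came from the LKO-1 derivative, which carries an empty lentiviral vector and was grown in puromycin. A monoclonal CUGBP1 antibody (3B1) gave 2 samples (CUGBP1 IP) and normal IgG gave 2 samples (control IgG), each hybridized to 1 Affymetrix Mouse Gene 1.0 ST array. Whether the replicates were separate cultures is not stated, so the spread between these samples may be technical. The limma p-values take that spread over probe sets of like intensity and not from each probe set alone. An immunoprecipitate cannot tell more CUGBP1 bound per transcript from more transcript in the lysate, and no array of input RNA was analysed here.

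Each array was expressed on a linear scale in units of its own 5th percentile. A probe set without signal thus reads about 1, which pulls the ratios of dim probe sets towards 1. Background was taken as the 95th percentile of olfactory and vomeronasal receptor probe sets on each array, which lay between 1.09 and 1.29. The control arrays differed from each other: the 95th percentile of all tested probe sets was 1.94 on control IgG replicate 1 and 4.34 on replicate 2, against 6.90 and 9.44 on the CUGBP1 IP arrays. Control IgG replicate 1 was therefore the array with the least signal, and most ratios below depend on which control they are set against. The myoblast label was borne out by the markers *Myod1*, with intensities of 18.80, 23.21, 1.77 and 3.30 on CUGBP1 IP replicates 1 and 2 and control IgG replicates 1 and 2, and *Des*, with 7.77, 8.97, 3.25 and 6.03. Of the 6 genes of differentiated muscle, 3 were above background on all 4 arrays. They were *Myog* (12.17, 6.35, 1.19 and 1.31 in the same order), *Acta1* (2.99, 2.81, 1.31 and 1.95) and *Mybph* (1.36, 1.68, 1.13 and 1.27). Of 5 neuronal markers 1 was, *Tubb3* (2.51, 5.71, 1.13 and 1.31). *Myog* and *Tubb3* were called higher (limma adjusted p = 0.0170 and 0.0233). The part of these muscle and neuronal genes in the coat results was not tested. None of the 4 endothelial and 4 haematopoietic marker genes measured was above background on all 4 arrays, and 1 of the 4 epithelial ones was (*Krt8*, at 1.36, 1.60, 1.13 and 1.33).

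On the deposited scale the coat mRNAs gave higher ratios than the table as a whole, but no single one passed the test. The signal-to-negative ratio, mean CUGBP1 IP intensity divided by mean control IgG intensity, was above 1 for all 46 probe sets, as it was for 93.3% of all tested probe sets. It ranged from 1.09 to 7.53 with a median of 1.75, against a median of 1.22 over all tested probe sets. The ratio was 2 or more for 17 of the 46 (37.0%), against 10.4% of all probe sets. As a log2 difference the median of the coat probe sets was 0.83, and 0.54 above the median of all probe sets, which was itself 0.29. That excess was still 0.54 with each array divided by its median, but 0.0134 after quantile normalization. Among probe sets above background on all 4 arrays, on the deposited values, it was 0.27. Its size thus depends on the normalization and on the probe sets compared.

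By limma on log2 values, with Benjamini-Hochberg adjustment over all probe sets and a threshold of 0.05, 0 of the 46 were higher and 0 were lower. Over all tested probe sets 1.95% were called higher and 0.138% lower. At an unadjusted p under 0.05, 17 of the 46 were higher, against 28.6% of all probe sets. Both CUGBP1 IP arrays lay above both control IgG arrays in 40 of the 46 (87.0%), against 66.3% of all probe sets. The 6 that overlapped were *Ap1g2*, *Ap4s1*, *Gga3*, *Cltb*, *Copg1* and *Copb2*. The top 5% by ratio (5.0% of all probe sets, by construction), the kind of measure by which the study picked associated transcripts, held 5 of the 46, namely the 3 of *Ap3s1* and those of *Ap3b1* and *Clta*. Without *Ap3s1* the count was 2 of 43 (4.65%), close to the share over all probe sets. The limit, a ratio of 2.57, was computed here over probe sets naming 1 gene. It is not the limit the study applied, and the range of enrichment the study gives, in whole numbers, starts higher. The ratios of *Ap3b1* and *Clta* lie below the start of that range, and those of *Ap3s1* lie above it. *Clta* left the top 5% when CUGBP1 IP replicate 1 or either control array was left out and after quantile normalization. *Ap3b1* left it when the second replicate of either group was left out. Both left it among probe sets above background on all 4 arrays, while *Ap3s1* stayed in it in each of these.

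**Figure D1:**
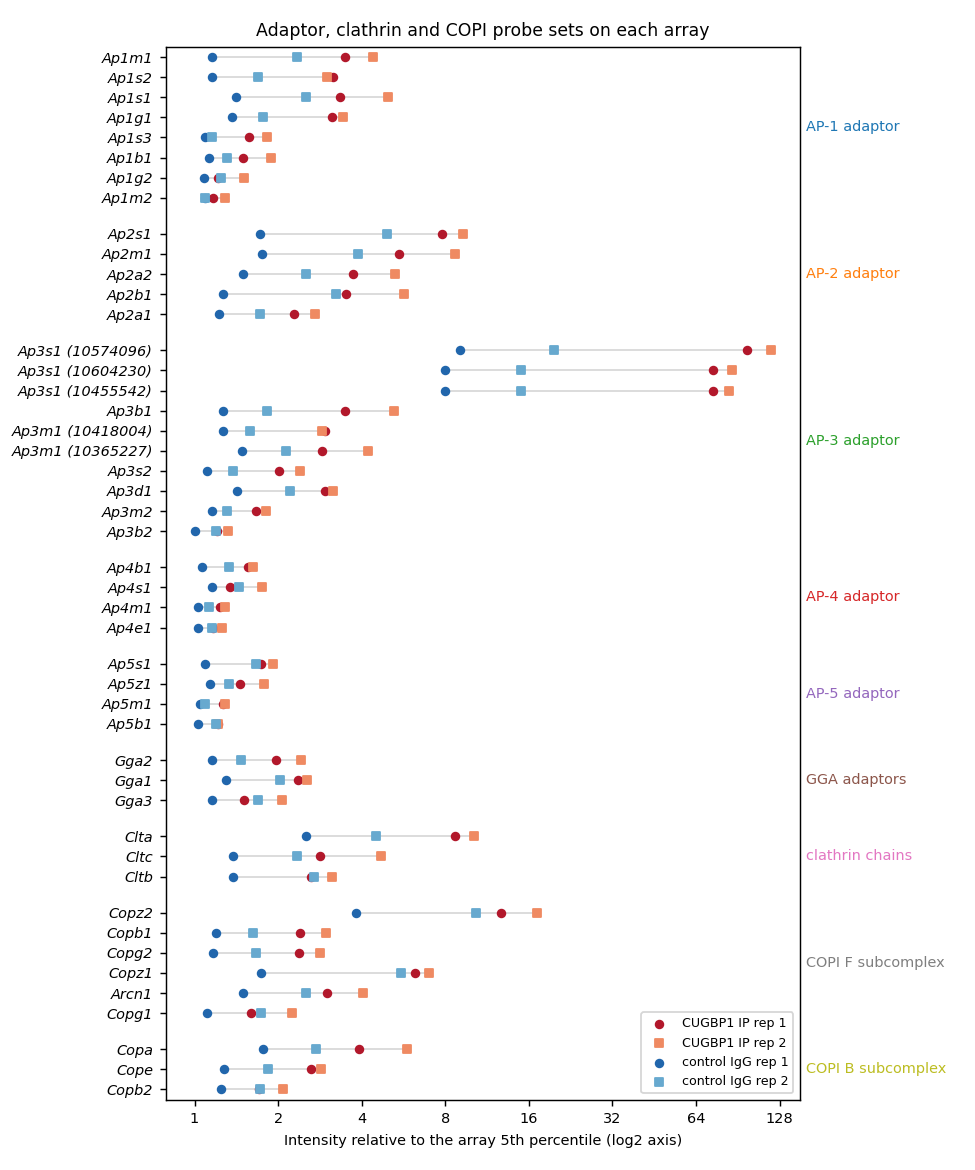
Intensity in units of each array's 5th percentile (log2 axis) of the 46 coat probe sets on the 4 arrays, grouped by complex; numbers after a gene are probe set identifiers. *Ap3s1* stands apart on the CUGBP1 IP arrays at 73.71 to 118.91, while AP-4 and AP-5 subunits stay below 2 on every array.

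The coat probe sets also stood above background more often than the rest. Of the 46 coat probe sets, 36 (78.3%) were above background on all 4 arrays, against 36.7% of all probe sets. Over the 7727 probe sets with signal above background throughout, the median log2 difference was 0.73, and it was 1.00 for the 36 coat probe sets. Both CUGBP1 IP arrays lay above both controls in 78.0% of the 7727 and in 86.1% of the 36. At an unadjusted limma p under 0.05, 34.4% of the 7727 and 41.7% of the 36 were higher. In that set 27 of the 36 had a ratio above the median of 1.61 and 9 were below it, and the top 5% began at a ratio of 4.01, which only the 3 probe sets of *Ap3s1* exceeded.

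AP-3, the adaptor of lysosomal sorting, held the transcript with the largest ratio of the group. *Ap3s1* encodes a ubiquitous sigma subunit. Its probe set 10574096 read 97.54 and 118.91 on CUGBP1 IP replicates 1 and 2, and 9.03 and 19.73 on control IgG replicates 1 and 2. The CUGBP1 IP values did not overlap the control values, and on the log2 scale the controls lay farther from each other than the CUGBP1 IP arrays did. The ratio was 7.53, higher than 99.5% of all probe sets, and the log2 difference 3.01 (SE 1.13, n = 2 arrays per group, limma adjusted p = 0.0996). Against each control alone, the ratio was 11.99 for replicate 1 and 5.49 for replicate 2.

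The other *Ap3s1* probe sets, 10604230 and 10455542, had ratios of 6.96 and 6.89 (limma adjusted p = 0.134 and 0.136). They carried the same value on 3 of the 4 arrays (73.71 on CUGBP1 IP replicate 1, 8.0 and 14.94 on control IgG replicates 1 and 2), so they are not counted as independent measurements. The *Ap3s1* result therefore rests on at most 2 separate readings of the transcript.

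*Ap3b1*, the ubiquitous large beta subunit of AP-3, read 3.47 and 5.22 with the CUGBP1 antibody and 1.27 and 1.83 with IgG. Both CUGBP1 IP values lay above both controls. The ratio was 2.80 and the log2 difference 1.48 (SE 0.53, n = 2 per group), with a limma adjusted p of 0.0870, the lowest of the coat probe sets. Its neuronal counterpart *Ap3b2*, the lowest of AP-3, read 1.20, 1.32, 1.00 and 1.19 on CUGBP1 IP replicates 1 and 2 and control IgG replicates 1 and 2. These values lay at or near background and the ratio was 1.15 (limma adjusted p = 0.228).

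The remaining AP-3 subunits had intermediate ratios. *Ap3m1*, the common mu subunit, had ratios of 1.96 at its brighter probe set (limma adjusted p = 0.179) and 2.04 at the other (adjusted p = 0.106). *Ap3s2*, the second sigma subunit, had a ratio of 1.77 (adjusted p = 0.0912), *Ap3d1*, the large delta subunit, 1.69 (adjusted p = 0.215), and *Ap3m2*, a mu subunit found mainly in neurons, 1.40 (adjusted p = 0.171). All 10 AP-3 probe sets had both CUGBP1 IP arrays above both controls, against 66.3% of all probe sets, and 7 of the 10 had an unadjusted p under 0.05, against 28.6%. In both counts 3 are the probe sets of *Ap3s1*, which are not all independent. Over all probe sets above background on all 4 arrays, as 9 of the 10 were, the 2 shares were 78.0% and 34.4%.

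AP-2, the endocytic adaptor, had the highest median ratio of the AP complexes, at 2.23 over its 5 probe sets. Against control IgG replicate 2 alone that order turned over probe sets, with a median of 1.73 for AP-2 and 1.75 for AP-3. The AP-3 median counts 3 probe sets of *Ap3s1* and 2 of *Ap3m1*. With the brightest probe set per gene the middle AP-3 ratio was that of *Ap3s2*, 1.60, and the order did not turn. The sigma subunit of AP-2, *Ap2s1*, read 7.80 and 9.24 with the CUGBP1 antibody and 1.72 and 4.94 with IgG. The groups did not overlap, but the controls lay far apart, and the ratio was 4.95 against control IgG replicate 1 and 1.73 against replicate 2. The overall ratio of 2.56 fell just under the top 5% limit of 2.57, and the log2 difference was 1.54 (SE 0.95, n = 2 per group, limma adjusted p = 0.223). The next gene inside the limit was *Clta* at 2.67.

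The cargo-binding mu subunit *Ap2m1* reached a ratio of 2.51 (limma adjusted p = 0.218). The 2 alternative alpha subunits differed in ratio, with 2.23 for *Ap2a2* (adjusted p = 0.175) and 1.70 for *Ap2a1*, the lowest of AP-2 (adjusted p = 0.153). *Ap2a1* read 2.29 and 2.71 with the CUGBP1 antibody and 1.22 and 1.72 with IgG, without overlap. The beta subunit *Ap2b1* had a ratio of 2.04 (adjusted p = 0.191).

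AP-1, the adaptor of the trans-Golgi network and endosomes, fell into 2 sets of subunits by ratio. The higher ratios lay between 2.10 and 2.25, those of the mu subunit *Ap1m1* at 2.25, the sigma subunits *Ap1s2* at 2.15 and *Ap1s1* at 2.11, and the large gamma subunit *Ap1g1* at 2.10. *Ap1m1* read 3.49 and 4.38 with the CUGBP1 antibody and 1.16 and 2.34 with IgG, without overlap (log2 difference 1.25, SE 0.53, n = 2 per group, limma adjusted p = 0.128). *Ap1s2* had the lowest limma adjusted p of the complex, 0.0912. In the other set, *Ap1s3* had a ratio of 1.51, *Ap1b1*, the beta subunit, 1.38, *Ap1g2*, the second gamma subunit, 1.17, and *Ap1m2*, 1.13.

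*Ap1m2* encodes the mu subunit particular to epithelial cells. It gave 1.17 and 1.29 with the CUGBP1 antibody and 1.09 on both control arrays, at background on all 4, and its limma adjusted p was 0.266. For *Ap1s3*, both control arrays were at background (1.09 and 1.16) while the CUGBP1 IP arrays read 1.57 and 1.82 (adjusted p = 0.103). The log2 difference of *Ap1s3* was 0.59, with a limma interval from 0.15 to 1.03. It was 0.30 after median scaling and 0.20 after quantile normalization, so no lower limit is given for the fold difference.

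AP-4 and AP-5, which carry cargo from the trans-Golgi network and late endosomes, were dim on every array. Their highest ratios were 1.33 for the AP-4 beta subunit *Ap4b1*, which read 1.56, 1.62, 1.06 and 1.33 on CUGBP1 IP replicates 1 and 2 and control IgG replicates 1 and 2, and 1.33 for the AP-5 sigma subunit *Ap5s1*, which read 1.74, 1.91, 1.09 and 1.66. Their lowest were 1.11 for the AP-4 epsilon subunit *Ap4e1* (1.17, 1.26, 1.03 and 1.16 in the same order) and 1.09 for the AP-5 beta subunit *Ap5b1* (1.21, 1.21, 1.03 and 1.19). In these 4 genes both CUGBP1 IP values lay above both controls, narrowly so in *Ap5s1*, *Ap4e1* and *Ap5b1*. *Ap5z1*, the zeta subunit, had a ratio of 1.31 and *Ap5m1*, a mu subunit above background on 1 array, 1.20. *Ap4s1*, a sigma subunit, had 1.19, and *Ap4m1*, a mu subunit, 1.17. Only *Ap4s1* and *Ap5z1* of the 8 were above background on all 4 arrays, so low recovery with CUGBP1 and low signal of the transcript cannot be told apart.

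The GGA adaptors had ratios of 1.67 for *Gga2*, 1.47 for *Gga1* and 1.25 for *Gga3*. *Gga2* read 1.97 and 2.41 with the CUGBP1 antibody and 1.16 and 1.47 with IgG, without overlap (limma adjusted p = 0.127). *Gga3* read 1.51 and 2.06 against 1.16 and 1.69, and its groups overlapped (adjusted p = 0.334).

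Of the clathrin genes, the light chain *Clta* had the largest ratio. It read 8.66 and 10.19 with the CUGBP1 antibody and 2.53 and 4.52 with IgG. The groups did not overlap, and the ratio was 2.67 with a log2 difference of 1.47 (SE 1.03, n = 2 per group, limma adjusted p = 0.265). The other light chain, *Cltb*, read 2.63 and 3.12 with the CUGBP1 antibody and 1.38 and 2.69 with IgG. Control IgG replicate 2 exceeded CUGBP1 IP replicate 1 there, and the ratio was 1.41 (adjusted p = 0.334). The heavy chain *Cltc*, which forms the legs of the lattice, had a ratio of 2.03 (adjusted p = 0.174).

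COPI forms an F subcomplex, related to the AP complexes, and an outer B subcomplex. In the F subcomplex the zeta subunit *Copz2* had the highest ratio, 2.11, and read 12.74 and 17.18 with the CUGBP1 antibody and 3.80 and 10.36 with IgG. The groups did not overlap, but the spread between the controls was wide. The limma adjusted p of *Copz2*, 0.421, was the highest of the coat probe sets. Its SE of 1.28 follows the intensity trend of the fit and not that spread. The other zeta subunit, *Copz1*, had a ratio of 1.82 that was 3.82 against control IgG replicate 1 and 1.20 against replicate 2 (adjusted p = 0.324).

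The beta subunit *Copb1* had a ratio of 1.90 and the lowest limma adjusted p of COPI, 0.114. *Copg2*, a gamma subunit, had a ratio of 1.84 (adjusted p = 0.122) and *Arcn1*, the delta subunit, 1.74 (adjusted p = 0.237). *Copg1*, the other gamma subunit, had the lowest ratio of the F subcomplex, 1.36, with 1.60 and 2.25 with the CUGBP1 antibody and 1.11 and 1.73 with IgG, which overlapped (adjusted p = 0.237).

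In the B subcomplex the alpha subunit *Copa* read 3.91 and 5.84 with the CUGBP1 antibody and 1.77 and 2.73 with IgG, without overlap, for a ratio of 2.17 (limma adjusted p = 0.216). The epsilon subunit *Cope* had a ratio of 1.76 (adjusted p = 0.160). The beta-prime subunit *Copb2* read 1.71 and 2.09 against 1.25 and 1.72, which overlapped, for a ratio of 1.28 (adjusted p = 0.331). The 9 COPI probe sets were all above background on all 4 arrays and had a median ratio of 1.82, and none was in the top 5%.

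**Figure D2:**
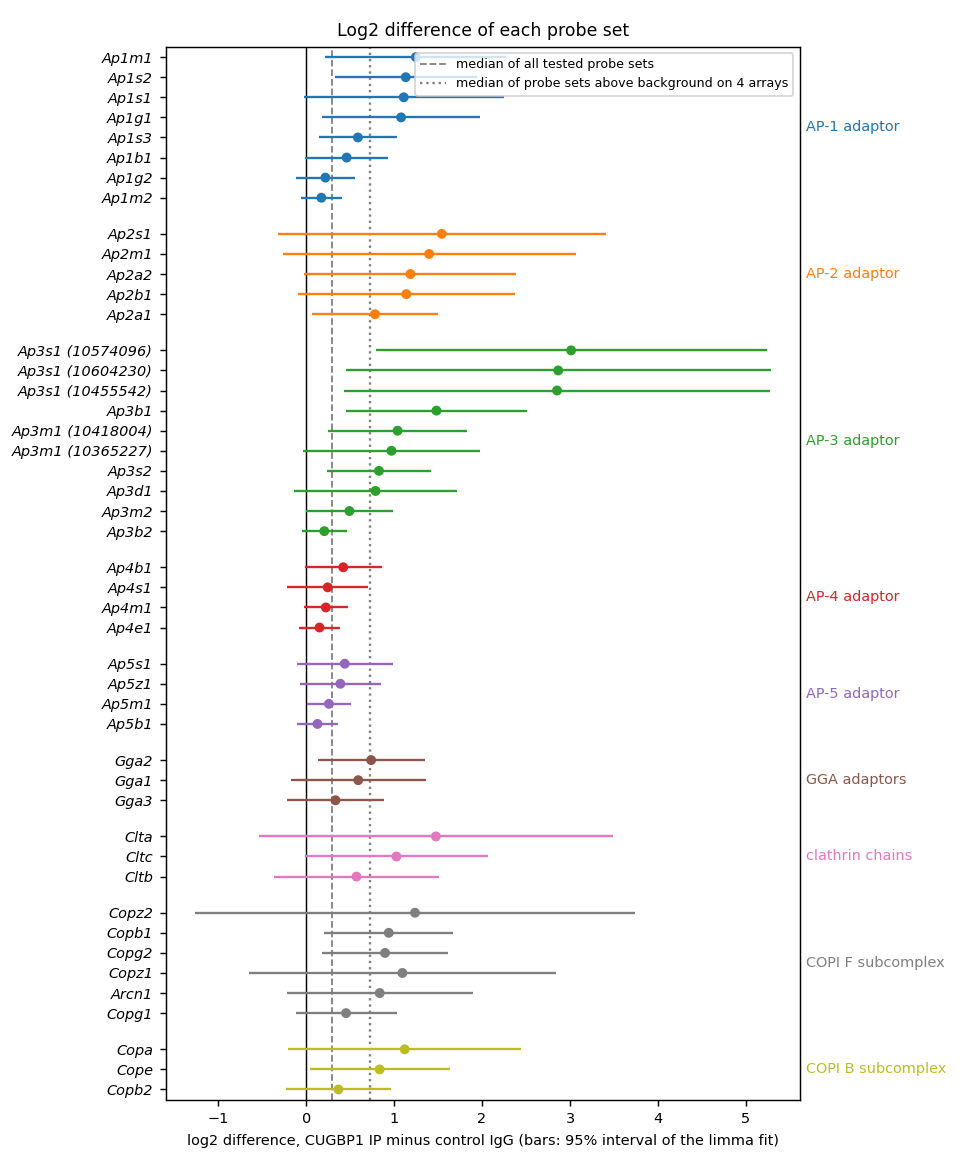
Log2 difference (CUGBP1 IP minus control IgG) of each coat probe set with the 95% interval of the limma fit, 2 arrays per group; the dashed and dotted lines mark the medians of all tested probe sets (0.29) and of those above background on all 4 arrays (0.73). *Ap3s1* lies near 3, most AP-1, AP-2, clathrin and COPI subunits between 0.5 and 1.5, and AP-4 and AP-5 below 0.5.

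The size of most differences depended on the control array, though not that of *Ap1m2*, whose controls read the same. The median ratio of the 46 probe sets was 2.15 against control IgG replicate 1 and 1.45 against replicate 2. In 20 of the 46 the first was more than 1.5 times the second, and the lowest ratio against replicate 2 was 1.02, for *Ap5b1*. *Ap3s1* and *Ap3b1* had the highest ratios against replicate 2 (5.29 to 5.49 and 2.37), followed by *Clta* at 2.09.

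**Figure D3:**
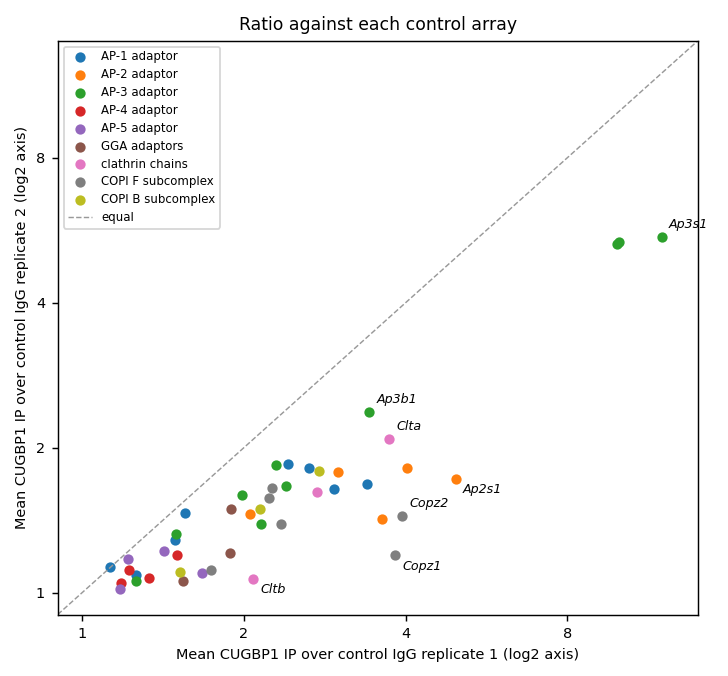
Mean CUGBP1 IP intensity over control IgG replicate 1 (horizontal) and over replicate 2 (vertical) for the 46 coat probe sets, both on log2 axes; colours mark the complex and the dashed line marks equal ratios. Nearly all points lie under the line, *Copz1* and *Ap2s1* far under it, and *Ap3s1* stays above 5 on both axes.

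Which coat genes were called depended on how the arrays were scaled. The deposited values set only the floor of the arrays equal. With each array divided by its median, which moves the median log2 difference of all probe sets down by 0.29, 4 coat probe sets were called higher, against 6.47% of all probe sets: *Ap3s2* (limma adjusted p = 0.0217), *Ap1s2* (0.0230), *Ap3b1* (0.0252) and *Ap3m1* at probe set 10418004 (0.0408). After quantile normalization, which also equalizes the bright end, the calls were the 3 probe sets of *Ap3s1*, with log2 differences of 1.58 to 1.90 (limma adjusted p = 0.00602 to 0.0328), against 2.01% of all probe sets. Log2 differences were above 0 for all 46 probe sets as deposited, for 38 after median scaling and for 22 after quantile normalization, and *Clta*, *Cltb*, *Copz2* and *Copa* were among those below 0 after the last. The direction of *Ap3s1* and *Ap3b1* was higher under all 3 scalings, and so was that of other coat probe sets, among them those of *Ap1m1*, *Ap1s2* and *Ap3s2*.

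**Figure D4:**
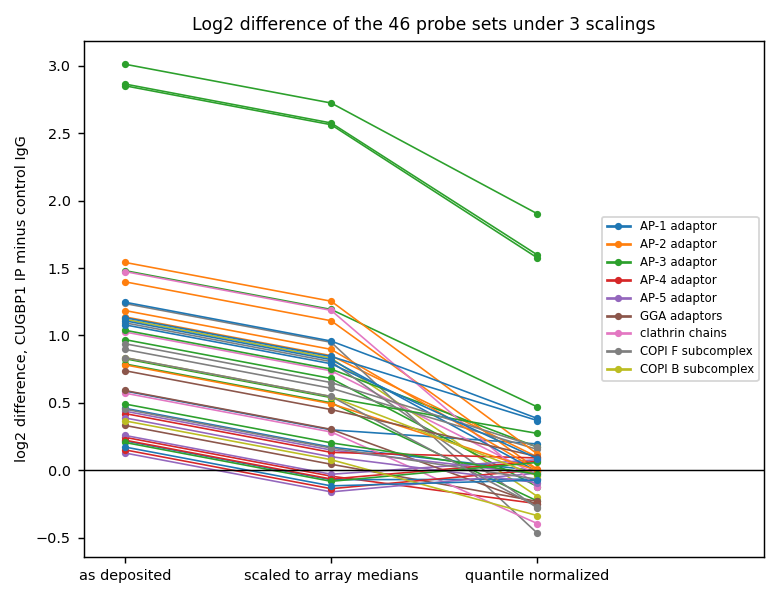
Log2 difference (CUGBP1 IP minus control IgG) of the 46 coat probe sets on the values as deposited, with each array scaled to its median, and after quantile normalization; each line is 1 probe set, coloured by complex. The 3 lines of *Ap3s1* stay above 1.5 and the other 43 end between -0.47 and 0.47 after quantile normalization, 24 of them below 0.

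Paralogues that take the same place in a complex were compared through the ratio of the pair within each array, which dividing an array by a constant cannot move. The order within a pair was set with results known, so the shifts are a description. The arrays of the groups did not overlap in 8 of 10 pairs, but no share over other gene pairs was computed to set beside this count. In every pair the first paralogue was the brighter on average in both groups. The median log2 difference of the series was itself larger above background on all 4 arrays (0.73) than over all probe sets (0.29). The part of intensity in the shifts was not tested. The largest shift was that of *Ap3s1* over *Ap3s2*, higher by 2.18 (log2) on the CUGBP1 IP arrays than on the controls, followed by *Ap3b1* over *Ap3b2* (1.27), *Ap1m1* over *Ap1m2* (1.07), *Clta* over *Cltb* (0.90) and *Ap1g1* over *Ap1g2* (0.86). For *Clta* over *Cltb* the arrays of either group lay within 0.063 of their mean. *Ap3m1* over *Ap3m2* shifted by 0.48, *Copg2* over *Copg1* by 0.44 and *Ap2a2* over *Ap2a1* by 0.40. Quantile normalization, which is not a constant per array, left 1.63 for *Ap3s1* over *Ap3s2*, 0.46 for *Ap1m1* over *Ap1m2*, 0.41 for *Ap3b1* over *Ap3b2*, 0.27 for *Clta* over *Cltb*, 0.22 for *Copg2* over *Copg1* and 0.15 for *Ap1g1* over *Ap1g2*. It left 0.0044 for *Ap2a2* over *Ap2a1* and turned *Ap3m1* over *Ap3m2* to -0.0916 and *Copz2* over *Copz1* to -0.19.

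The arrays overlapped for *Copz2* over *Copz1* (0.14) and for *Ap1s1* over *Ap1s2*, which fell by 0.02. With 2 arrays against 2, the exact permutation test cannot give a two-sided p below 0.333, and that value was reached by the 8 pairs. The second paralogue of 3 of these pairs, *Ap3b2*, *Ap1m2* and *Ap1g2*, was above background on at most 2 of the 4 arrays, where its own difference is pulled towards 0. In the other pairs the second paralogue was also the dimmer on average, and how far the floor pulls its difference there was not tested.

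**Figure D5:**
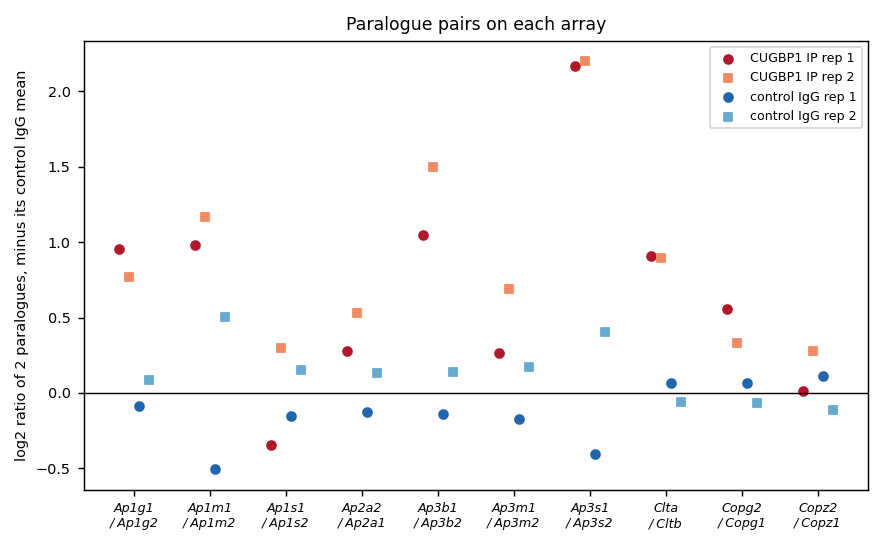
Log2 ratio of the first paralogue to the second on each array, minus the mean of that ratio over the 2 control IgG arrays, for 10 pairs; points are single arrays. *Ap3s1* over *Ap3s2* is about 2 above the controls on both CUGBP1 IP arrays, whereas the arrays mix for *Ap1s1* over *Ap1s2* and *Copz2* over *Copz1*.

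Among the proteins that work with these coats, few were called either. Of 49 probe sets (45 genes) of clathrin accessory proteins, 1 was called higher (2.04%, against 1.95% of all probe sets) and 18 had an unadjusted p under 0.05 (36.7%, against 28.6%). The called gene was *Eps15l1*, an endocytic scaffold that binds AP-2, at 3.43 and 4.15 with the CUGBP1 antibody and 1.13 and 1.56 with IgG (ratio 2.82, limma adjusted p = 0.0467). The median log2 difference of this list was 0.49. *Dab2*, an endocytic adaptor for lipoprotein receptors, and *Sh3gl3*, an endophilin, were also in the top 5% with ratios of 2.95 and 2.59 (adjusted p = 0.131 and 0.105). *Hspa8*, the chaperone that uncoats clathrin vesicles and the brightest of the list, showed a ratio of 1.76 (adjusted p = 0.393).

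Of 17 probe sets (16 genes) of cargo sorted by the adaptors, 1 was called higher (5.88%, against 1.95% of all probe sets). It was *Scarb2*, the lysosomal membrane protein also known as LIMP-2, at 2.37 and 2.76 with the CUGBP1 antibody and 1.09 and 1.22 with IgG (ratio 2.22, limma adjusted p = 0.0314). *Lamp2*, another lysosomal membrane protein, read 8.86 and 7.26 against 1.5 and 1.66, a ratio of 5.10 that missed the threshold (adjusted p = 0.0558). *Cd63*, a lysosomal tetraspanin and the brightest of those not called, had a ratio of 1.52 (adjusted p = 0.715). The median log2 difference of this list was 0.57. The calls of *Eps15l1* and *Scarb2* were lost without the intensity trend of the fit and without any one of the arrays, when no probe set of the whole series was called.

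Of 34 probe sets (29 genes) of COPI regulators and cargo, 0 were called by limma, against 1.95% of all probe sets. At an unadjusted p under 0.05, 11 were higher (32.4%, against 28.6%), and the median log2 difference was 0.93. In the top 5% by ratio were 10 of the 34, from 6 genes (29.4%, against 5.0% of all), and none of the 9 of COPI subunits. The top 5% held 12.6% of all probe sets above background on all 4 arrays, as 25 of the 34 were. The p24 cargo receptors *Tmed10* (ratios 5.31 and 5.06) and *Tmed2* (3.41 to 3.75) and the small GTPase *Arf3* (4.51) led, followed by the KDEL receptor *Kdelr1* (3.31), *Ergic1* (2.63) and *Arf1*, the GTPase that recruits COPI (2.60 and 2.57). *Tmed2*, the brightest of the list, read 45.23 and 51.44 with the CUGBP1 antibody and 6.84 and 18.94 with IgG, without overlap, and its limma adjusted p was 0.227.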

How the data were processed

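RNA of 2 CUGBP1 and 2 control IgG immunoprecipitates of C2C12 LKO-1 cells was measured on 1-colour Affymetrix Mouse Gene 1.0 ST arrays. The deposited values are linear intensities that the authors divided by each array's 5th percentile. Neither the summarisation program nor the genome build is given in the sources. Of 25175 probe sets, 21044 were annotated to exactly 1 gene and tested; 1492 named several genes and 2639 none. Symbols of 20959 were updated through RefSeq gene names.

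Log2 intensities were compared with limma 3.58.1 in R 4.3.3 (lmFit, eBayes with an intensity trend, two-sided), adjusted by the Benjamini-Hochberg method over all 21044, threshold 0.05. The script was tested on simulated data drawn with less spread than these arrays have. That test bears on the code and not on power or false calls here. The prior degrees of freedom were estimated as infinite, so each SE follows the intensity trend and not the probe set's own spread, and the 4 arrays limit the precision. Samples were grouped by title. Alternatives were an offset of 1 before log2, median and quantile scaling, no trend, a filter on dim probe sets, a replicate block and leaving out each array.

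The members and lists were chosen with earlier results of these data known. Every member was named. Array values are given for members in the top 5% by ratio, those called, and the highest and lowest of each complex, and for a gene with several probe sets those of the brightest. Of the accessory lists, genes called or in the top 5% and the brightest not called were named.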

Additional observations from a re-analysis of the deposited data

How the results depend on the processing

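The count of coat probe sets called higher was 0 as reported, without the intensity trend, with the filter on dim probe sets and in each fit that left out 1 array (0 to 0). It was 1 with the offset of 1 (*Ap3b1*), 4 with median scaling and 3 with quantile normalization. The replicate block called 39. Over all 21044 probe sets, the 411 higher calls became 763 with the offset, 1362 with median scaling, 423 with quantile normalization, 270 of 7727 under the filter, 11809 with the replicate block, and 0 without the trend or without any one array. The deviations of same-numbered arrays correlated at 0.64 over probe sets, but with 2 pairs, and with no source saying what a number shares, the numbers were not taken as pairs. No coat probe set was called lower in any of these fits. The block, and a fit without 1 array, leave 1 residual degree of freedom. At an unadjusted p under 0.05, 2 and 0 coat probe sets were higher without CUGBP1 IP replicate 1 and 2, and 5 and 31 without control IgG replicate 1 and 2.

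For clathrin accessory proteins, cargo and COPI regulators, where 1, 1 and 0 probe sets were called, the offset gave 1, 2 and 2, median scaling 4, 3 and 4, quantile normalization 1, 1 and 1, the filter 0, 1 and 1, no trend 0, 0 and 0, and the block 37, 10 and 20. The cargo call under the filter was *Lamp2*. *Scarb2*, above background on 3 of the 4 arrays, was removed by the filter. Without 1 array the accessory and cargo counts were 0 to 0. The top 5% by ratio held 5 coat probe sets as reported, 3 under the filter, 6 with median scaling, 4 with quantile normalization and 4 to 5 without 1 array. The median log2 difference of the coat probe sets over that of all, 0.54 as reported, was 0.0134 with quantile normalization, 0.27 under the filter and 0.35 to 0.72 without 1 array.

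Log2 differences turned below 0 for 8 of the 46 coat probe sets with median scaling and for 24 with quantile normalization. Among the genes whose array values are given, these were, with median scaling, *Ap1m2* (-0.12), *Ap3b2* (-0.082), *Ap4e1* (-0.14) and *Ap5b1* (-0.16). With quantile normalization they were *Ap1m2* (-0.073), *Ap2a1* (-0.0018), *Ap5b1* (-0.0213), *Ap5s1* (-0.0274), *Gga3* (-0.23), *Clta* (-0.12), *Cltb* (-0.40), *Copg1* (-0.0662), *Copz2* (-0.47), *Copa* (-0.19) and *Copb2* (-0.34). The cause was not tested. The log2 difference of *Ap3s1* at probe set 10574096 ranged from 1.90 to 3.58 over all alternatives and was never below 0.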
